A study of Mus musculus with 9 samples.

Results

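Monocytes were 1 of 17 cell populations of the mouse bone marrow, and 20 genes were listed for them among 293 entries of a deposited table of top marker genes. The members were all genes whose population was named Monocytes, while both monocyte progenitor populations were left out. Each value compared the Monocytes of all mice together with all other cells measured. The cells were mononuclear marrow cells of 9 C57BL/KaLwRij mice aged 12 weeks, profiled by droplet-based single-cell RNA-Seq after 5TGM1 myeloma cells, which carry GFP, had been sorted out. By label, 2 samples were Control (no tumor), 3 were PBS (5TGM1 tumor and vehicle) and 3 were CST6 (5TGM1 tumor and recombinant mouse cystatin M/E, which blocks cysteine proteases of the lysosome), and 1 sample carried no label for its agent. The title of 1 sample labelled PBS is numbered with the Control samples. The table had no value per mouse or per group, so no error, test or effect of tumor or CST6 was obtained for any gene. The table gives neither the number of cells behind a value nor their depth.

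Monocytes arise in the marrow from progenitors shared with macrophages and leave it for the blood. In mice they come as Ly6C-high cells, which enter inflamed tissue and can become macrophages or osteoclasts, and as Ly6C-low cells, which patrol the vessel wall. The Ly6C-low cells depend on the transcription factors Nr4a1 and C/EBPβ and are known for the surface proteins Fcgr4 and Ace. Signals from the receptor of macrophage colony-stimulating factor, Csf1r, sustain the lineage and are needed for osteoclasts to form.

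Genes known from Ly6C-low monocytes, such as Ace, Nr4a1, Cebpb and Fcgr4, stood in the list next to some known from Ly6C-high monocytes. Of 25 genes on a list for monocytes with emphasis on the Ly6C-low kind, 9 were listed for any population. Monocytes had 7 of them, namely Cebpb, Gngt2, Ace, Nr4a1, Csf1r, Itga4 and Fcgr4, and Macrophages 0. Of 16 genes on a list for classical, Ly6C-high monocytes, 9 were listed for any population. Monocytes had 3 of them (Ms4a4c, Ms4a6c and Ifi27l2a) and Macrophages 8, where Fn1, F13a1, Ccl9, Ccl2 and S100a4 were added to the same 3. The study's methods name the population by Ly6c2 and Ccl2. Neither was among the 20 genes, as Ccl2 was listed for Macrophages and Ly6c2 for none of the 17 populations. A list of top genes does not give the level of a gene it leaves out, so the levels of Ly6c2 and Ccl2 in Monocytes are not shown. No gene of the macrophage, neutrophil, conventional or plasmacytoid dendritic, B cell, T and NK cell, erythroid, basophil and mast cell or megakaryocyte marker lists stood among the 20. Because the authors chose the population's name from marker genes of the same cells, these counts are no independent check of it. The lists used here were also drawn up with earlier results of these data known. Several members on the first list were thus sure to be found, and 7 against 0 was no open comparison. The same limit holds for the counts on every other list, here and below.

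For each gene the table gave the area under the receiver operating characteristic curve (AUC), which is 0.5 for a gene that does not separate the population from other cells and 1 for one that separates it fully. It also gave a log2 fold change and, both for Monocytes and for the rest of the cells, which share had a value above 0. Over the 20 genes the deposited AUC ran from 0.808 to 0.894 with a median of 0.8385, against a median of 0.874 over all 293 entries. By that median Monocytes stood at place 15 of the 17 populations, and by their best AUC at place 16. Deposited log2 fold changes ran from 1.31 to 2.84 with a median of 2.07, place 6 of 17, close to the median of 2.06 over all entries. A log2 fold change of 2 or more was reached by 11 of the 20 genes (55.0%), while 53.9% of all entries reached it. Monocytes therefore combined middling fold changes with low AUCs. Across the 20 genes, AUC and log2 fold change were only loosely related (Pearson r = 0.479, Spearman rho = 0.462, a description over genes of the same cells). The gene with the highest AUC, Ctss, was at place 7 by fold change.

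Receptors, signalling and surface proteins made up 7 of the 20 genes, in a grouping of the members made here. Of these 7, 6 had a log2 fold change of at least 2, which 53.9% of all entries reached. That count depends on the grouping, since the surface protein Ly6e was placed with the interferon genes. The highest value of all members was that of Gngt2, a gamma subunit of heterotrimeric G proteins, at a log2 fold change of 2.84 or 7.18-fold. It had an AUC of 0.893 and was above 0 in 92.8% of Monocytes and 63.3% of other cells. Ace, the angiotensin-converting enzyme, a peptidase on the cell surface, had a log2 fold change of 2.14 and an AUC of 0.885. Ace was above 0 in 87.1% of Monocytes and 37.2% of other cells, the widest difference of the members at 49.9 percentage points. Clec4a3, a C-type lectin receptor, had a log2 fold change of 2.34 and an AUC of 0.865. These 3 genes were listed for no other population, as were 62.8% of all entries.

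Csf1r, the receptor named above, had a log2 fold change of 2.20 with an AUC of 0.834 and was above 0 in 90.6% of Monocytes and 69.8% of other cells. Fcgr4, an activating receptor for the Fc part of antibodies, reached 2.15 on the log2 scale but only an AUC of 0.809. It was above 0 in 85.0% of Monocytes and 56.0% of other cells. Tnfrsf1b, a receptor of tumor necrosis factor, stood at a log2 fold change of 2.11 and an AUC of 0.849. Itga4, the integrin chain that binds VCAM-1 on stromal and vessel cells, was the lowest of the 7 at a log2 fold change of 1.93, with an AUC of 0.819 and values in 85.4% of other cells. On a list of 21 genes for Fc receptors, Csf1r, related receptors and their adaptors, 4 were listed for any population. Of these, 3 were listed for Monocytes (Clec4a3, Csf1r and Fcgr4) and 0 for Macrophages, which was no open comparison either. Of 40 osteoclast differentiation genes, 6 were listed for any population, 2 of them for Monocytes (Csf1r and Fcgr4).

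Transcription factors contributed 3 genes. Nr4a1, an orphan nuclear receptor, had the highest fold change of the 3, with a log2 value of 2.43 and an AUC of 0.843, and was above 0 in 92.7% of Monocytes and 67.6% of other cells. Cebpb separated the cells best, with an AUC of 0.893 at a log2 fold change of 2.03, and was above 0 in 99.5% of Monocytes and 81.3% of other cells. Atf3, a stress-induced factor of the ATF/CREB family, was lower on both scales, at 1.70 for the log2 fold change and 0.810 for the AUC. Of the 22 immediate early and stress factors on a list, these were Nr4a1 and Atf3, and 4 were listed for any population. Nr4a1 was also listed for Lymphomyeloids prog. II, where its log2 fold change was 1.99 and its AUC 0.824. Cebpb and Atf3 were listed for Monocytes alone.

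Lysosomal genes formed another set, and they include enzymes of the kind that CST6 blocks. Ctss, the cysteine protease cathepsin S, led the whole list with an AUC of 0.894 at a log2 fold change of 2.14, and was above 0 in 98.4% of Monocytes and 71.4% of other cells. Ctsb, cathepsin B, had a log2 fold change of 1.55 and an AUC of 0.816, with values in 96.7% of Monocytes and 82.9% of others. Cst3, which codes for cystatin C, a secreted inhibitor of such proteases, stood at a log2 fold change of 1.64 and an AUC of 0.860. It was above 0 in 99.8% of Monocytes and 91.8% of other cells, the highest share of other cells among the members. Monocytes thus had 2 proteases and an inhibitor of the same enzyme class on 1 list. Of 24 genes for cathepsins, their inhibitors and the lysosome, 5 were listed for any population, 3 of them for Monocytes and 1, Ctss, for Macrophages.

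Genes known to be induced by interferon were 5 of the 20. Ifi204, of the HIN-200 family of DNA-binding proteins, had a log2 fold change of 2.48, the second highest of all members, with an AUC of 0.839 and values in 88.7% of Monocytes and 60.6% of other cells. Ifitm3, which blocks the entry of enveloped viruses, had the best AUC of the 5, 0.876, at a log2 fold change of 1.68. Ifit1bl1, of the Ifit family, had the lowest fold change of the 20 genes (1.31 on the log2 scale) but the second widest difference in shares, 81.1% of Monocytes against 49.0% of others. Ly6e, a lipid-anchored surface protein, was at 1.40 and Ifi27l2a at 1.42 for the log2 fold change. Apart from Ifi204, then, the genes of this set had fold changes in the lower part of the list. On a list of 26 interferon-inducible genes, which did not hold Ifit1bl1 and Ly6e, 7 were listed for any population. Of these, 3 were listed for Monocytes and 2 for Macrophages (Ifi27l2a and Ifi30). The remaining pair, Ms4a4c at a log2 fold change of 2.13 and Ms4a6c at 1.62, code for membrane proteins of the Ms4a family. Several of these genes belong to families of close relatives, and reads shared between relatives may not have been counted for either.

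**Figure D1:**
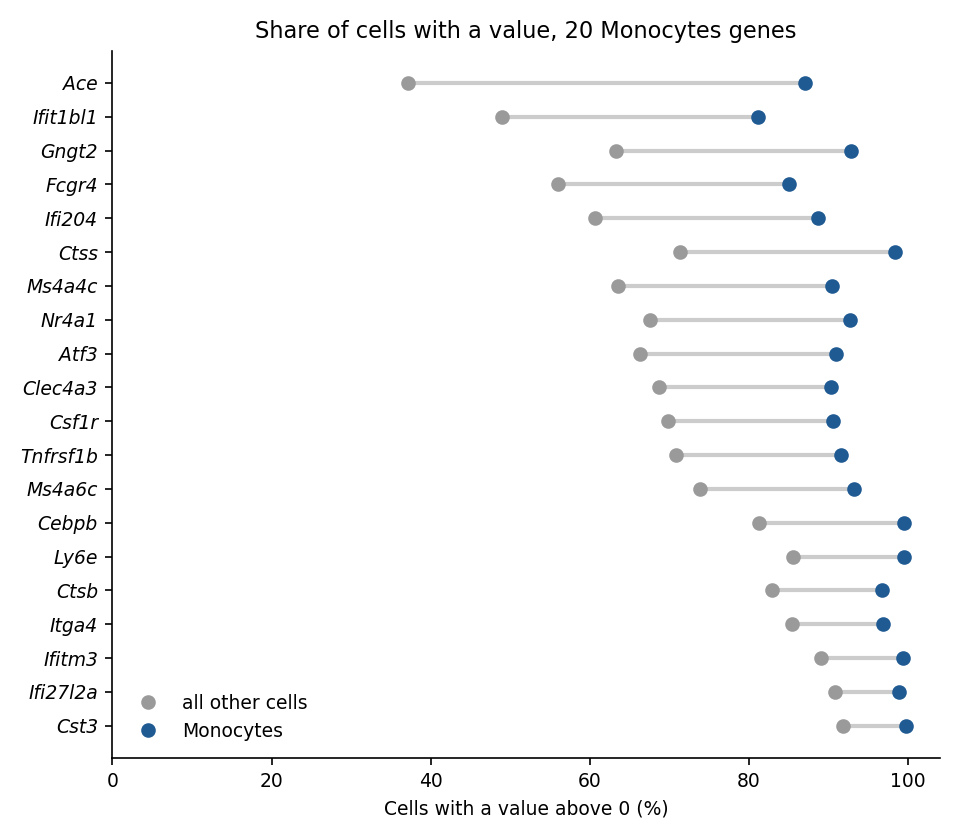
Percentage of cells with a value above 0 for each of the 20 Monocytes genes, in Monocytes (blue points) and in all other cells (grey points), joined by a line and ordered by the difference. Ace has the widest difference, 87.1% against 37.2%, and Cst3 the narrowest, 99.8% against 91.8%.

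Most of these genes were not confined to Monocytes by presence. The median share of cells with a value above 0 was 92.8% inside Monocytes and 70.35% among other cells. Over all 293 entries these medians were 96.5% and 67.5%, so wide presence outside a population was common to the listed genes. The median difference was 21.2 percentage points, place 13 of 17 populations (28.1 over all entries). At least 75% of the other cells had a value for 7 of the 20 genes (35.0%, against 27.3% of all entries). These were Cst3, Ifi27l2a, Ifitm3, Ly6e, Itga4, Ctsb and Cebpb, which include 3 interferon and 2 lysosomal genes. Only Ace and Ifit1bl1 were above 0 in less than 50% of the other cells. Shares may rest on counts of molecules or on values corrected between samples, a point left unstated in the methods, and this limits what a value above 0 means. Over all 293 entries the lowest share of other cells above 0 was 20.5%, so a value above 0 should not be read as a detected transcript.

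The AUC that presence or absence alone would give follows from the shares, as 0.5 plus 0.5 times the difference of the shares. For Ace it was 0.7495, which accounted for 64.8% of the separation above 0.5. Ace was the only one of the 20 genes (5.0%) where presence accounted for at least 50% of the separation, against 21.2% of all entries. For Ifit1bl1 it accounted for 48.3%, for Fcgr4 46.9% and for Ifi204 41.4%. At the other end, it accounted for 11.1% for Cst3, 13.1% for Ifi27l2a, 13.7% for Ifitm3 and 18.0% for Itga4. These 4 genes had values in at least 85.4% of the other cells, so presence could add little to their AUC. The median over the 20 genes was 31.0%, place 15 of 17 populations, against 37.9% over all entries.

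**Figure D2:**
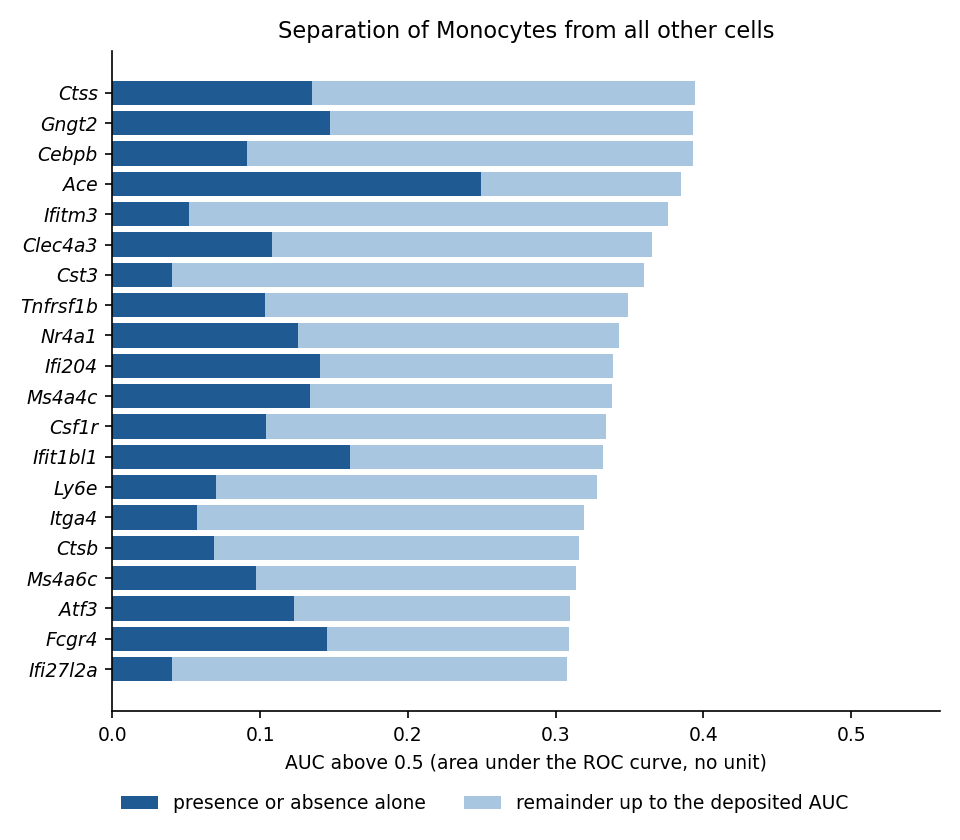
AUC above 0.5 of the 20 Monocytes genes, as deposited (whole bar), with the part that presence or absence of a value alone would give (dark) and the remainder (light). The dark part is 64.8% of the bar for Ace and 11.1% for Cst3.

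Macrophages, the population most like Monocytes by shared genes of those compared here, also had 20 genes, of which 4 (20% of each list) were the same, namely Ctss, Ms4a4c, Ms4a6c and Ifi27l2a. Each population was part of the other cells in the comparison of the other, so their values were set side by side without a test. Ctss was alike in both, with log2 fold changes of 2.14 in Monocytes and 2.16 in Macrophages and AUCs of 0.894 and 0.910. Ifi27l2a had the higher values in Macrophages, with a log2 fold change of 1.92 against 1.42 and an AUC of 0.887 against 0.808. Ms4a6c also had the higher values in Macrophages, at 1.92 against 1.62 on the log2 scale and 0.863 against 0.814 for the AUC. Ms4a4c went both ways, since its log2 fold change was 2.13 in Monocytes and 1.81 in Macrophages, while its AUC was 0.838 and 0.851. All 4 genes thus had the lower AUC in Monocytes, and 1 of the 4 the higher fold change. The 2 comparisons were not against like cells. By the bounds given below, Macrophages were 10.03% to 11.63% of all cells and Monocytes 1.05% to 2.82%. The other cells of Monocytes therefore held more cells of a population listed for the same genes. How far this lowered the Monocytes values was not tested, so they do not rank the levels of the 2 populations.

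Of the 20 Monocytes genes, 15 (75%) were listed for no other population, against 184 of all 293 entries (62.8%) and 12 of the 20 Macrophages genes. Most entries of the table were thus listed once, and the count for Monocytes was not tested against that share. With only the 10 top genes of each population, 9 of 10 Monocytes genes were listed once, where 69.1% of the 162 entries were by AUC and 67.3% by fold change. Ms4a6c was the member listed most often, as it also stood in the list of Monocyte prog. I with a log2 fold change of 1.55 and an AUC of 0.855. The best 5 genes of Macrophages by AUC were Ctss, Fn1 (fibronectin, log2 fold change 2.48), Lgals3 (galectin 3, 1.81), Wfdc17 (2.45) and F13a1 (coagulation factor XIII, 2.14), and besides Ctss none of them was listed for Monocytes. Macrophages had a median AUC of 0.8775 against 0.8385 for Monocytes, but a lower median log2 fold change, 1.97 against 2.07. A log2 fold change of 2 or more was found for 9 of their 20 genes. The range of fold changes was also wider in Monocytes, from 1.31 to 2.84 against 1.80 to 2.48.

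**Figure D3:**
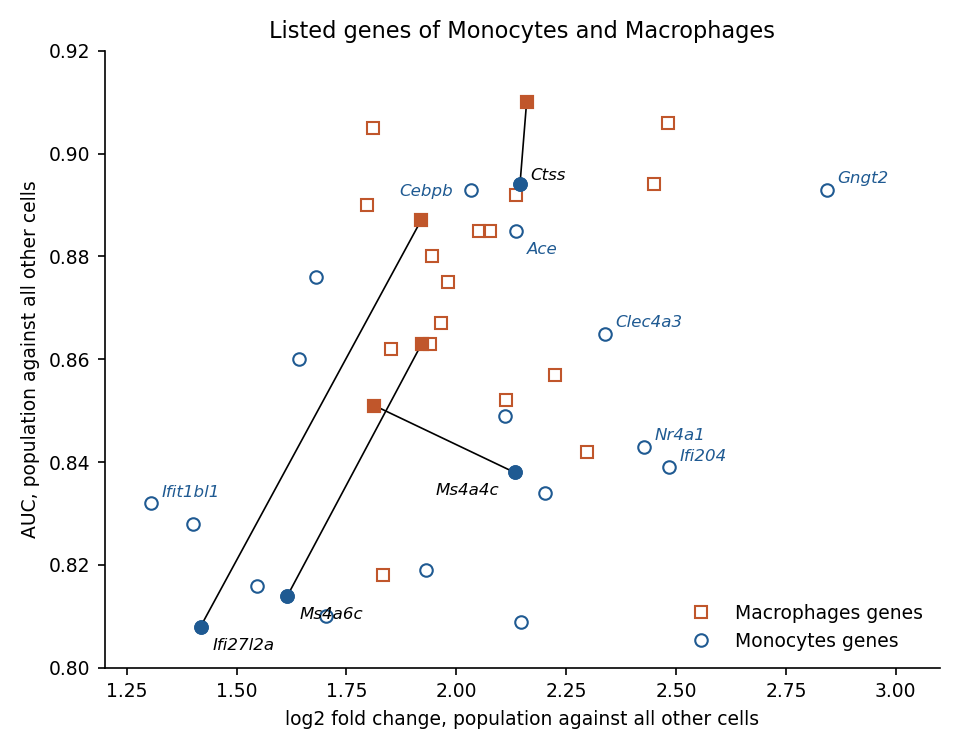
Deposited log2 fold change (horizontal) and AUC (vertical) of the 20 listed genes of Monocytes (blue circles) and of Macrophages (orange squares), each against all other cells. Lines join the 4 shared genes (filled), all of which lie lower in AUC for Monocytes, and Gngt2 stands farthest to the right at 2.84.

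The size of the population could be bounded from the shares, although the table gives no number of cells. A gene listed for more than 1 population has a single share over all cells, which the shares inside and outside each of these populations must both give. With 50 such genes and 69 equations, shares rounded to 3 decimals allowed Monocytes 1.05% to 2.82% of all measured cells and Macrophages 10.03% to 11.63%. Over all mice pooled, Macrophages were thus 3.56 to 11.0 times as many as Monocytes. The study reports a lower proportion of macrophages in tumor-bearing mice given CST6, so this ratio need not hold within each group. All equations could be met at once with an error of 0.0706 percentage points, within the 0.1 points that rounding allows. These bounds cover rounding only, not the spread between mice, and they describe cells after Ficoll separation, removal of GFP-positive cells and filtering, steps that can set such shares.

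Because Monocytes were so few, they held a small part of the cells with a value for each of their genes. Of all cells with an Ace value, 2.44% to 6.35% were Monocytes, the highest part among the members. For Cst3 it was 1.15% to 3.05%, and for Csf1r 1.36% to 3.62%. Over all 293 entries at least 20.5% of other cells were above 0, so any listed gene of so small a population would give a small part. For each of the 20 genes, most cells with a value above 0, which need not be a detected transcript, therefore lay outside the population. The genes shared with Macrophages were no exception, since Ctss was above 0 in 67.6% to 68.2% of the cells that belonged to neither population, and Ms4a4c in 59.7% to 60.4%.

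**Figure D4:**
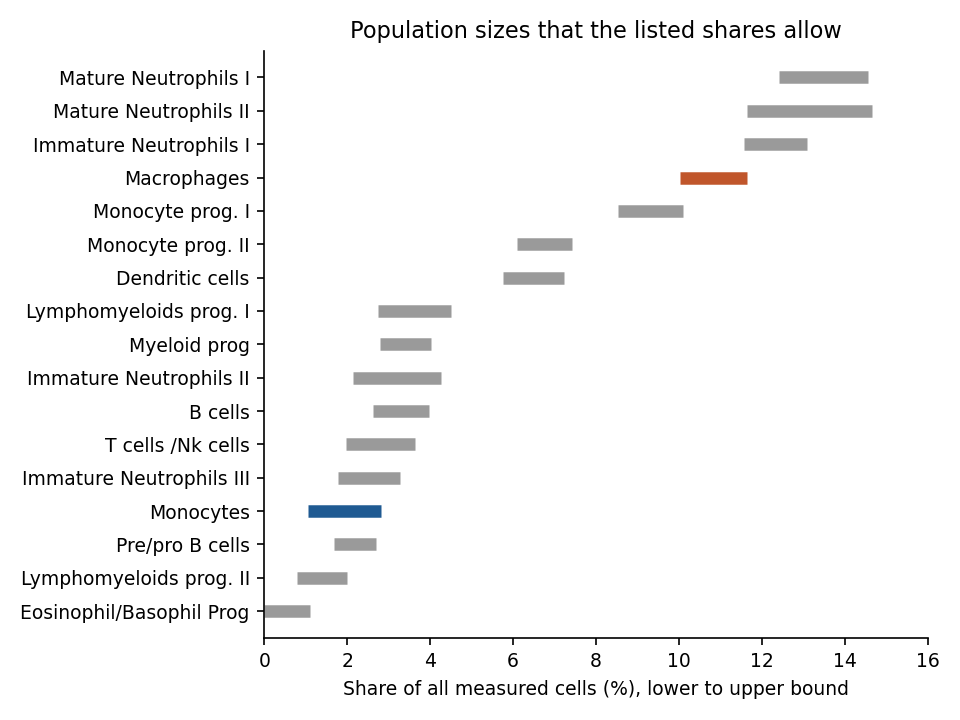
Lower and upper bound of the share of all measured cells for each of the 17 populations, in the order of the deposited table, as the listed shares allow them. Monocytes (blue) lie between 1.05% and 2.82% and Macrophages (orange) between 10.03% and 11.63%.

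The 20 genes lay on 12 chromosomes of the mm10 genome, and all are annotated as protein-coding. The only close neighbours were Ms4a4c (chromosome 19, 11404770 to 11427246) and Ms4a6c (chromosome 19, 11469366 to 11482192), 42.1 kb apart. Gngt2 (95837216 to 95845734) and Ace (105967945 to 105989964) both lay on chromosome 11, and Fcgr4 (171018920 to 171029761), Ifi204 (173747293 to 173766943) and Atf3 (191170296 to 191218039) on chromosome 1. Nr4a1 lay on chromosome 15 from 101254269 to 101274795, Cebpb on chromosome 2 from 167688915 to 167690418 and Ctss on chromosome 3 from 95526786 to 95556403.

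The promoters of several members carried short motifs of factors known in monocytes. RefSeq promoter windows (build GRCm38.p6, which is mm10, from 250 bases before to 50 bases after a gene's start) were matched for 14 of the 20 genes, in 17 windows. On both strands, the interferon-stimulated response element, searched as GAAA, any 2 bases and GAAA again, was found in windows of 5 genes, Ctss, Ifitm3, Tnfrsf1b, Ifit1bl1 and Fcgr4. That was 6 of the 17 windows (35.3%) against 3.44% of 32851 windows of all genes. A motif of PU.1, the factor that directs cells to the myeloid lineages, searched as GAGGAAGT, was found for 3 genes, Ctss, Ifit1bl1 and Fcgr4, in 4 windows (23.5% against 3.20% of all). The pair of windows of Ifit1bl1 were much alike in sequence and held the same matches, so they are not separate finds. Both are in the counts of windows above, which raises the 35.3% and the 23.5%. By gene, 5 and 3 of the 14 matched genes had a match, and no share by gene was computed over all genes to set beside these counts. Gngt2, Ifi204, Csf1r, Ly6e, Ctsb and Ifi27l2a had no window and were not searched. A C/EBP motif (TTGCGCAA), the NBRE bound by Nr4a1 (AAAGGTCA) and the cAMP response element (TGACGTCA) were found in 0 of the 17 windows, and in 0.183%, 1.51% and 1.79% of all windows. The motifs did not overlap in the windows shown, and a match describes letters, not binding.

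The windows of Ctss (chr3:95526536-95526835, plus strand) and Fcgr4 (chr1:171018676-171018975, plus strand) are shown because both hold both motifs, and those of Ifitm3 (chr7:141010695-141010994, minus strand) and Tnfrsf1b (chr4:145246821-145247120, minus strand) because they hold the response element alone. Sequences read 5′ to 3′ along the gene's strand, and capitals mark the matches.
Ctss: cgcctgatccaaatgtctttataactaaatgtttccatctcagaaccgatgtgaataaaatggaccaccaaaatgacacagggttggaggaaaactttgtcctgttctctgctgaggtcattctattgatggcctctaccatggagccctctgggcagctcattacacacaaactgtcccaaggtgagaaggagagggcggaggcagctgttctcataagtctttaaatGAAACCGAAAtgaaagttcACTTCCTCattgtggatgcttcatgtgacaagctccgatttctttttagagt
Fcgr4: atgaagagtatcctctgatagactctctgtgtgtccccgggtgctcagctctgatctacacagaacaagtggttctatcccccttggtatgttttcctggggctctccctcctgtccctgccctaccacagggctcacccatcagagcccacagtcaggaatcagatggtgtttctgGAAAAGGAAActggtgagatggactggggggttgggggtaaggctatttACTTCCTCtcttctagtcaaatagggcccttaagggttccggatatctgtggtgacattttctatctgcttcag
Ifitm3: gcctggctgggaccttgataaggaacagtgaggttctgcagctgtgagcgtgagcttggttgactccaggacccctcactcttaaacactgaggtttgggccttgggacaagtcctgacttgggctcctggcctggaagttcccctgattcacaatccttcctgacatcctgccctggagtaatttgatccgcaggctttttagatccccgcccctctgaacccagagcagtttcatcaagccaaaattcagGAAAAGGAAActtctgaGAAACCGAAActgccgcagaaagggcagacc
Tnfrsf1b: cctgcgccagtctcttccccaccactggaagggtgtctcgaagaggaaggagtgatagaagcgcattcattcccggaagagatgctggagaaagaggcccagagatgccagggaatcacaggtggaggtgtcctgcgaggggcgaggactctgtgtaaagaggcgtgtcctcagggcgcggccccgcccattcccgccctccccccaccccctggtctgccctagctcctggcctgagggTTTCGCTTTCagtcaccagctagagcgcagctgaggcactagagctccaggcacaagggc

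In Ctss the response element began 21 bases before the start and the PU.1 match, read on the opposite strand, lay across it from 2 bases before. In Fcgr4 the response element began 73 bases and the PU.1 match 24 bases before the start. Ifitm3 held 2 response elements, which began at bases 3 and 20 with the start counted as 1, and in Tnfrsf1b the match, on the opposite strand, began 10 bases before it. Among these 4 genes, Ctss had the best AUC of all members, while Fcgr4 was at place 19 of 20.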

How the data were processed

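Marrow mononuclear cells from 9 mice were profiled with the Chromium Single Cell 3′ kit. Per the submitters' processing notes, Cell Ranger, Seurat 4 and mm10 were used. Per the methods of the study, the authors filtered cells on genes detected and on mitochondrial share, integrated samples by reciprocal PCA, clustered cells by the Louvain method and compared each cluster with all other cells, pooling the mice. They name MAST for this step, while the columns are those of Seurat's ROC test. For doublets and for the pseudocount of the fold changes, the treatment was not stated.

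The deposited table holds 2 scores per entry, the AUC and the power, together with a deposited log2 fold change, the same difference on a natural log scale in the authors' units, and 2 shares of cells above 0, each a deposited fraction, for the population and for the rest. Power equalled 2 × AUC − 1 and the natural log difference equalled the log2 fold change multiplied by ln 2, each within 1e-09 for all 293 entries. Such columns are comparisons made by the authors over all mice, and 0 columns hold values per sample. All values above are therefore the authors' values, with no replicate error. No population has more than 20 entries and no AUC is below 0.801.

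All 20 Monocytes genes were described, with every gene shared with Macrophages and the 5 Macrophages genes of highest AUC. The members and the gene lists were chosen with earlier results of these data known. Presence AUC, population bounds (linear programming, SciPy 1.17.1) and promoter motifs were computed here, and the former pair were tested on simulated data. The presence AUC counts a gene only as above 0 or not, so it can be set beside the deposited AUC only if both rest on the same values. In 1 of the 293 entries (Cd3e in T cells /Nk cells) the deposited AUC of 0.974 was above the 0.967 that its shares allow if 0 is the lowest value, so this does not hold throughout; 0 of the 20 Monocytes genes were above their limit. Gene coordinates are from GENCODE M21.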

Additional observations from a re-analysis of the deposited data

How the results depend on the processing

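The median log2 fold change of the Monocytes genes, 2.072, and their median difference in shares, 21.2 points, were the same without the genes also listed for Macrophages. Leaving out the genes named in the study's methods changed nothing, since none was a member. With the 10 genes of highest AUC they were 2.141 and 23.35 points. With the 10 top genes of each population, by AUC or by fold change, Monocytes shared 1 gene with Macrophages and 9 of their 10 genes were listed for no other population, against 69.1% (by AUC) and 67.3% (by fold change) of the 162 entries kept over all populations; fewer genes enter these counts by construction. The upper bound of the population's share of cells was 2.82%, and it rose to 13.4% with only the 4 genes shared with Macrophages (lower bound 0) and to 4.03% with only genes whose shares differ by at least 0.2, since fewer equations bind. With all populations set to make up all cells, an alternative chosen after seeing the data, the bounds were 1.52% and 2.82%. No paired analysis was possible because the table has no values per sample; leaving out single mice was not possible for the same reason. Depth and the number of cells in each population are not given with these values, and top lists say nothing of genes they leave out.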
